A study of Homo sapiens with 12 samples.

Results

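The 37 genes described here encode proteins that carry out mitosis. Chosen by symbol and not by a threshold on these arrays, they were listed with earlier results of these data known. They are 37 of the 34595 genes and other identifiers measured. All 37 passed the filter on low values and were among the 19670 tested. CDK1 appears under its older symbol CDC2: the table holds CDC2 on 1 line, has no line for CDK1, and gives POLD1, which also once bore that symbol, a line of its own.

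The cells were ECC1, a human endometrial cancer line, and their RNA was measured on 12 Illumina whole-genome expression arrays, 3 for each of 4 groups. The groups were MTDH KO cells given 10 nM estradiol for 24 h, MTDH KO cells left untreated, parental cells given the same estradiol, and parental cells left untreated. Estradiol was added once the cells had spent 24 h in RPMI1640 with charcoal-stripped serum (5%), from which most steroid hormone has been removed. MTDH encodes metadherin, a membrane-associated protein studied in several cancers. The knockout was represented by 1 line, so loss of MTDH and any other difference of that line cannot be told apart. The labels do not say that replicates came from separate cultures, and the p-values therefore measure only the spread between these arrays, which may be technical.

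Mitosis is entered when cyclin B activates CDK1, after FOXM1 and other regulators have raised the transcription of a large set of genes late in the cell cycle. The spindle checkpoint then holds anaphase back until kinetochores, the protein assemblies on each centromere, are attached to microtubules, and the anaphase-promoting complex releases the sister chromatids. Motor proteins shape the spindle and bring about the cleavage of the cell. Because the RNAs of these genes peak in G2 and mitosis, their level in a culture is widely used as a sign of how many cells are dividing, and estradiol is known to stimulate the growth of many cells that carry its receptor. In RNA from whole cultures, fewer cells in those phases and less of these RNAs per cell cannot be told apart.

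Array signals are log2 values throughout, and differences are log2 differences with their standard errors (SE, 3 arrays a group). A gene is said to have risen or fallen where the Benjamini-Hochberg adjusted p of limma, over all 19670 genes, was under 0.05. MTDH itself read 10.94, 8.49 and 8.50 in MTDH KO estradiol cells and 8.57, 8.53 and 8.59 in MTDH KO untreated cells, against 10.83, 10.96 and 8.97 in parental estradiol cells and 11.43, 11.18 and 10.78 in parental untreated cells. The array labelled MTDH KO estradiol 1 thus had a level near the parental one, and the array labelled parental estradiol 3 a level near that of the knockout. Across all genes MTDH KO estradiol 1 was most like parental estradiol 2, and parental estradiol 3 most like MTDH KO estradiol 3. Both are called by their labels here. The count of mitosis genes called in each comparison is also given without these 2 arrays. The response to estradiol averaged over the lines keeps its size if those arrays were exchanged. All 8 epithelial markers exceeded the filter level of 6.817 on all 12 arrays: EPCAM, CDH1 and KRT8 lay between 12.14 and 13.31, and KRT18, KRT7 and CLDN4 only between 6.83 and 7.52. Of 5 endometrial or Mullerian markers, PAX8, ESR1, EMX2 and HOXA10 exceeded that level on all 12 arrays, with ESR1 between 9.34 and 10.26. HOXA11 exceeded it on 1 array and did not pass the filter. Of the markers of other cell types, 4 of 8 for fibroblasts, 4 of 6 for leukocytes and 1 of 4 for endothelium passed the filter. COL1A1 (7.34 to 8.15), COL3A1 (6.86 to 7.33), CD68 (7.91 to 8.27) and VWF (7.10 to 7.76) exceeded that level on all 12 arrays, while PTPRC, CD3E, LUM, PDGFRA, PDGFRB and CDH5 did so on 0.

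Parental untreated cells had the highest level of most mitosis genes. The mean over the 37 genes was 9.93, 10.02 and 9.86 in MTDH KO estradiol cells, 10.00, 9.93 and 9.93 in MTDH KO untreated cells, 9.99, 9.98 and 10.01 in parental estradiol cells, and 10.24, 10.27 and 10.19 in parental untreated cells. The 3 parental untreated arrays lay above the other 9, which overlapped from group to group. Of the 37 genes, 31 had their highest group mean in parental untreated cells, 3 in MTDH KO estradiol cells (PLK1, CDC20 and ECT2) and 3 in parental estradiol cells (BUB1, MAD2L1 and ASPM). The lowest mean was in MTDH KO estradiol cells for 22 genes, in MTDH KO untreated cells for 13 and in parental estradiol cells for 2, PLK1 and BIRC5. Without MTDH KO estradiol 1 and parental estradiol 3 these lowest counts became 17, 12 and 8. In that case 32 genes had their highest mean in parental untreated cells.

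The upper quartile of all values on an array moved in a similar way, with overlap between groups. It was 7.60, 7.68 and 7.57 in MTDH KO estradiol cells, 7.71, 7.66 and 7.70 in MTDH KO untreated cells, 7.63, 7.62 and 7.70 in parental estradiol cells, and 7.77, 7.76 and 7.69 in parental untreated cells. After quantile normalization, which gives every array the same distribution, parental untreated cells still had the highest mean for 27 of the 37 genes. The lowest mean was then in MTDH KO untreated cells for 13 genes and in MTDH KO estradiol cells for 11. For 8 genes it was in parental estradiol cells and for 5 in parental untreated cells. The mean over the 37 then ran from 9.97 to 10.03 on the other arrays and from 10.10 to 10.17 on those of parental untreated cells. The 8 epithelial markers averaged 9.54 in MTDH KO estradiol cells, 9.68 in MTDH KO untreated cells, 9.66 in parental estradiol cells and 9.99 in parental untreated cells. Their part in the mitosis result was not tested.

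**Figure D1:**
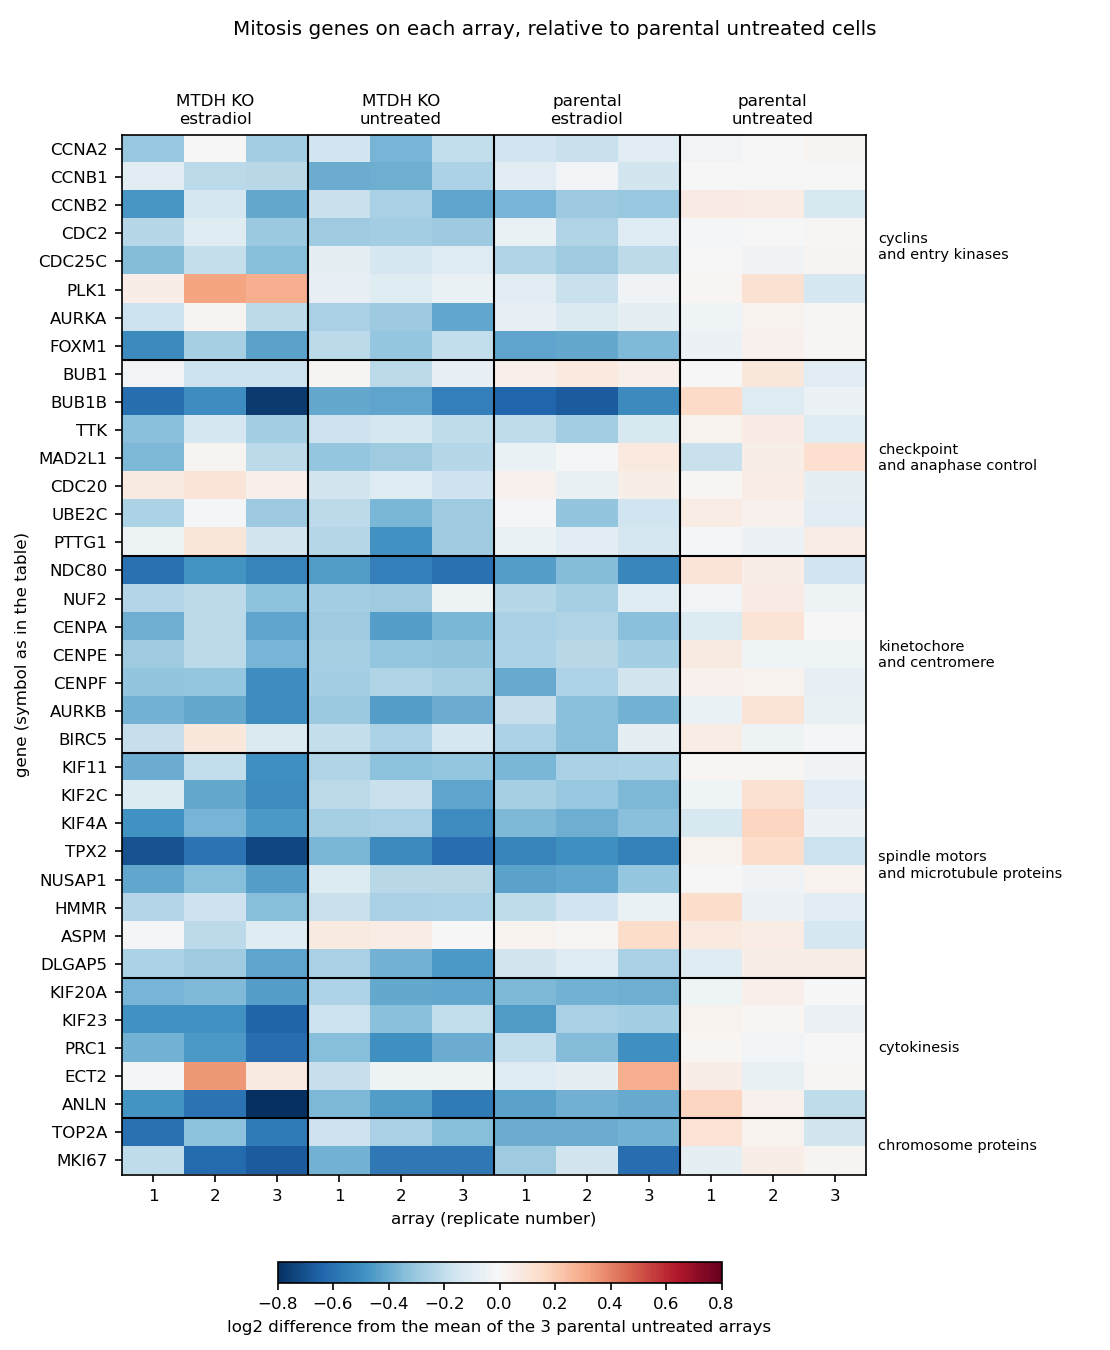
Each of the 37 mitosis genes (lines, in blocks by role) on each of the 12 arrays (columns, 3 per group), as the log2 difference from the mean of the 3 parental untreated arrays. Blue, lower values fill most of the other 9 columns, and PLK1, CDC20, ECT2, BUB1 and ASPM are among the exceptions.

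Many of the genes also share letters in front of their transcription starts. Promoters of many late cell cycle genes carry a cell cycle genes homology region, or CHR, with the letters TTTGAA, bound by complexes of the DREAM and MuvB family, and CCAAT boxes, bound by NF-Y. RefSeq promoter sequences (GRCh38.p14) were at hand for 31 of the 37 genes and not for TTK, UBE2C, TPX2, AURKA, FOXM1 and BIRC5. In the 250 bases before the start, on both strands, TTTGAA was found in 18 of the 31 (58.1%), against 16.1% of all 27305 genes in that set. In the last 100 bases the shares were 45.2% of the mitosis genes and 5.76% of all genes. CCAAT was found in 80.6% of the mitosis genes and 37% of all genes, and both in 51.6% and 5.79%. By role, TTTGAA was in 1 of 6 kinetochore and centromere genes (16.7%), near the share of all genes, and in 4 of 5 cytokinesis genes (80%). NDC80, NUF2, CENPE and KIF2C had neither TTTGAA nor CCAAT. In MKI67 a CHR and a CCAAT share bases. TTTGAA was in 9 of the 16 promoters of genes that fell in MTDH KO untreated cells, as described below, and in 9 of the other 15. A match of letters shows no binding.

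BUB1B and MKI67 are printed because, of the 6 genes described at length for the untreated lines, these have a CHR in the sequences at hand. CCNB2, TOP2A and PLK1 were added after the matches were seen, CCNB2 and TOP2A for their 4 CCAAT each, and PLK1 because it went another way than most members. Capitals mark TTTGAA and CCAAT on either strand. Each sequence runs 5′ to 3′ on the strand of the gene and ends at the base before its start. BUB1B is at chr15:40160819-40161068 on the plus strand, MKI67 at chr10:128126424-128126673 on the minus strand, CCNB2 at chr15:59104896-59105145 on the plus strand, TOP2A at chr17:40417897-40418146 on the minus strand and PLK1 at chr16:23678639-23678888 on the plus strand.
BUB1B: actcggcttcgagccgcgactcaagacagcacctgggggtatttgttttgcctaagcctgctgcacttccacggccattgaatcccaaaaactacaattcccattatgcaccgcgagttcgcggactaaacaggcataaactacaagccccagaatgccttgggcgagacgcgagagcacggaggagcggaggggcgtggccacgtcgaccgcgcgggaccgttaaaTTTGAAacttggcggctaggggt
MKI67: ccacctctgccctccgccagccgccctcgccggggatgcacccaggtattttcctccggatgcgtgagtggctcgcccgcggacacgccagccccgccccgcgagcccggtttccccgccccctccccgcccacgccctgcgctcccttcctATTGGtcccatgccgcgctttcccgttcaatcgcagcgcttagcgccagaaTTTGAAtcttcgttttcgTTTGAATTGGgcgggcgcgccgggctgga
CCNB2: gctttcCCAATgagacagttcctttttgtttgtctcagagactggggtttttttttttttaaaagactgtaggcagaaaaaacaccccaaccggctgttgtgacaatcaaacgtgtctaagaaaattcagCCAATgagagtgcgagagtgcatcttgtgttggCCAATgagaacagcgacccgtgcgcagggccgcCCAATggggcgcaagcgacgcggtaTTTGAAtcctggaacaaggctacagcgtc
TOP2A: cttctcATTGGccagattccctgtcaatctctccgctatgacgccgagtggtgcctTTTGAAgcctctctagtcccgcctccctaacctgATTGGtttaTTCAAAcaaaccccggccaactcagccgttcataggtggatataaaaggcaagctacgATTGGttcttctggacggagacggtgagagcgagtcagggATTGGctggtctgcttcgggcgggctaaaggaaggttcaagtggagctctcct
PLK1: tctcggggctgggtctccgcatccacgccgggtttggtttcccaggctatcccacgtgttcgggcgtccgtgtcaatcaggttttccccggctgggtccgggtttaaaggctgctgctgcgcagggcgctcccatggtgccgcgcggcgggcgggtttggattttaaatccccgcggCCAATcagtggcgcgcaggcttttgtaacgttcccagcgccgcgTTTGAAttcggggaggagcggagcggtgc
In CCNB2, PLK1 and at the nearer of the 2 sites of MKI67, TTTGAA begins 29 bases before the start, and in BUB1B 23 bases before it. In TOP2A both copies lie farther out, with first bases 194 and 151 bases before the start.

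**Figure D2:**
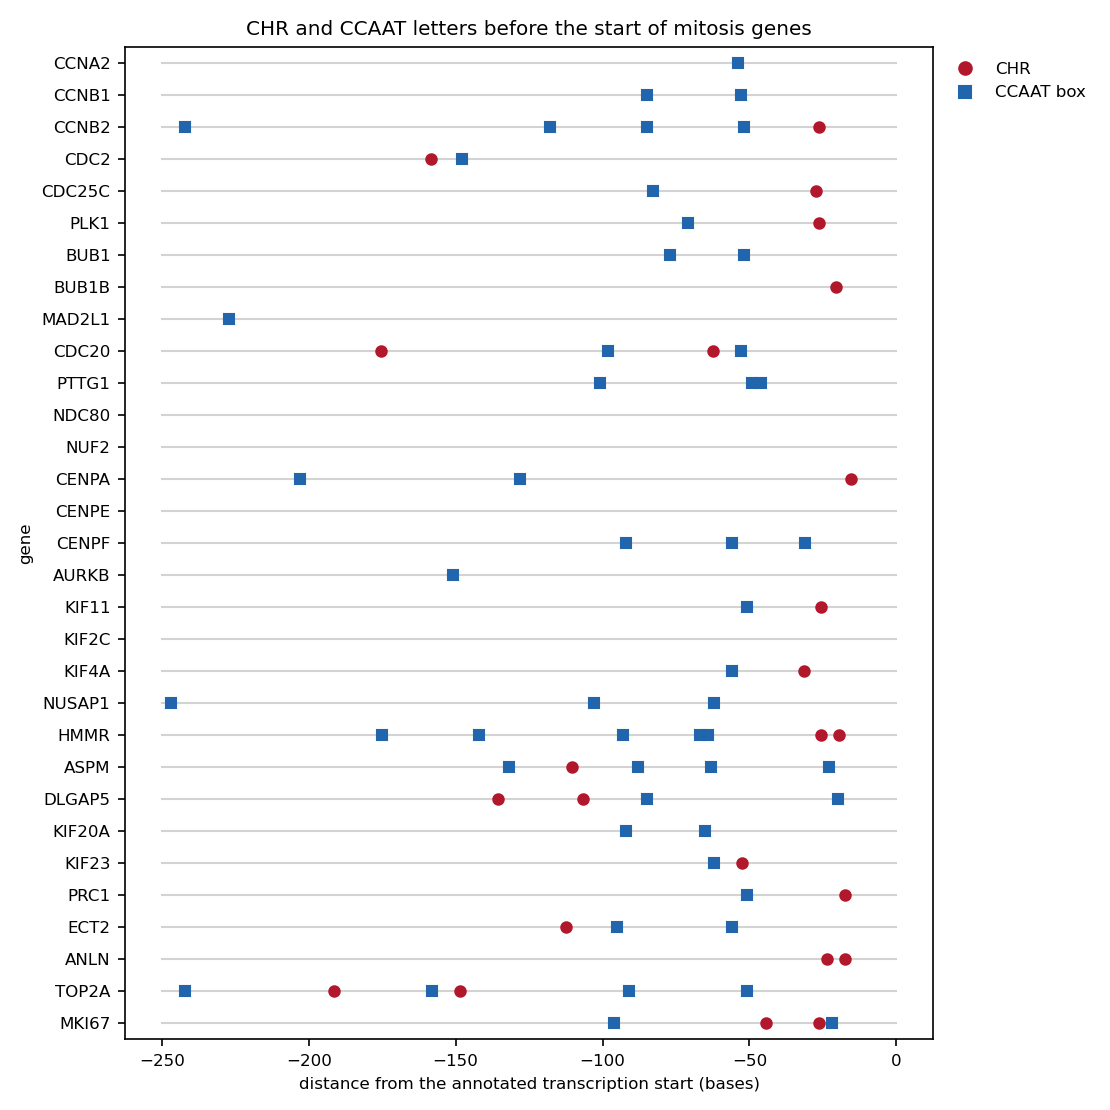
Positions of TTTGAA (CHR, red circles) and CCAAT (blue squares), on either strand, in the 250 bases before the annotated start of 31 mitosis genes, with the distance from the start in bases on the horizontal axis. For a gene with several annotated starts, 1 is drawn. In 14 genes a CHR lies within the last 100 bases of at least 1 start.

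The first comparison asked how the lines differed without hormone. In MTDH KO untreated cells 19 of the 37 mitosis genes fell and 0 rose relative to parental untreated cells (51.4%). Over all genes tested 8.63% fell, and among the 6989 genes with mean levels in the range of the mitosis genes 16.9% did. The median difference of the 37 was −0.28, against −0.03 over all genes and −0.12 in that range, and 36 of 37 were below 0. The falls were small: the 19 lay between −0.53 (NDC80) and −0.24 (FOXM1).

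Among the cyclins and kinases of mitotic entry 4 of 8 fell. CCNB1, the cyclin B that activates CDK1, read 10.37, 10.38 and 10.51 in MTDH KO untreated cells, against 10.77, 10.76 and 10.76 in parental untreated cells. The groups did not overlap, and the difference was −0.35 ± 0.06 (adjusted p = 0.00731). AURKA, the kinase of centrosome maturation, fell by 0.32 on the log2 scale (adjusted p = 0.0133), and CDC2 and FOXM1, the transcription factor of late cell cycle genes, also fell. CCNA2, CCNB2, CDC25C and PLK1 did not pass the test, with differences between −0.29 and −0.07.

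Of the 7 genes of the checkpoint and of anaphase, 2 fell. BUB1B, which encodes the checkpoint protein BubR1, read 8.76, 8.74 and 8.62 in MTDH KO untreated cells, against 9.32, 9.06 and 9.12 in parental untreated cells. Its 3 knockout values lay below the 3 parental ones, and it differed by −0.46 ± 0.09 (adjusted p = 0.00795). PTTG1, the securin that restrains separase, fell by 0.33 on the log2 scale (adjusted p = 0.0197). The checkpoint genes BUB1, TTK and MAD2L1, and CDC20 and UBE2C, which work with the anaphase-promoting complex, had differences from −0.29 to −0.09 and did not pass.

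Kinetochore and centromere genes fell in 5 of 7 cases. NDC80, which links kinetochores to microtubules, read 9.15, 9.05 and 9.01 in MTDH KO untreated cells, against 9.70, 9.65 and 9.45 in parental untreated cells. The groups were apart, and it had the smallest p of the 37 genes (−0.53 ± 0.08, adjusted p = 0.00389). AURKB, the kinase of the chromosomal passenger complex, fell by 0.38 (adjusted p = 0.009), as did CENPA, the centromeric histone, CENPE, a kinetochore motor, and CENPF, by 0.26 to 0.36. NUF2, the direct partner of NDC80, differed by −0.20 (adjusted p = 0.112), and the passenger protein BIRC5 (survivin) by −0.19.

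Spindle genes fell in 4 of 8 cases. TPX2, which activates AURKA on the spindle, read 10.37, 10.23 and 10.13 in MTDH KO untreated cells, against 10.77, 10.88 and 10.57 in parental untreated cells. No knockout value reached the parental ones (−0.49 ± 0.08, adjusted p = 0.00603). DLGAP5 (−0.36, adjusted p = 0.011), a spindle protein, and the motors KIF11 and KIF4A fell as well. The motor KIF2C and the spindle proteins NUSAP1 and HMMR had differences between −0.27 and −0.18 and ASPM, of the spindle poles, one of 0.04, none of which passed.

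Of the 5 cytokinesis genes, 3 fell. KIF20A, a motor of the cleaving cell, read 10.66, 10.49 and 10.49 in MTDH KO untreated cells, against 10.87, 10.94 and 10.90 in parental untreated cells. The groups did not overlap (−0.36 ± 0.06, adjusted p = 0.00609). PRC1, which bundles microtubules between the separating chromosomes, fell by 0.41 (adjusted p = 0.0103) and ANLN, a scaffold of the contractile ring, by 0.46 (adjusted p = 0.0151). KIF23 (−0.23) and ECT2 (−0.09), the exchange factor that switches on the ring, did not pass. MKI67, the Ki-67 antigen that coats mitotic chromosomes, read 8.28, 8.09 and 8.09 in MTDH KO untreated cells, against 8.59, 8.71 and 8.68 in parental untreated cells. It was lower on every knockout array (−0.51 ± 0.13, adjusted p = 0.0246), and TOP2A, the topoisomerase that untangles sister chromatids, differed by −0.25 (adjusted p = 0.07).

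**Figure D3:**
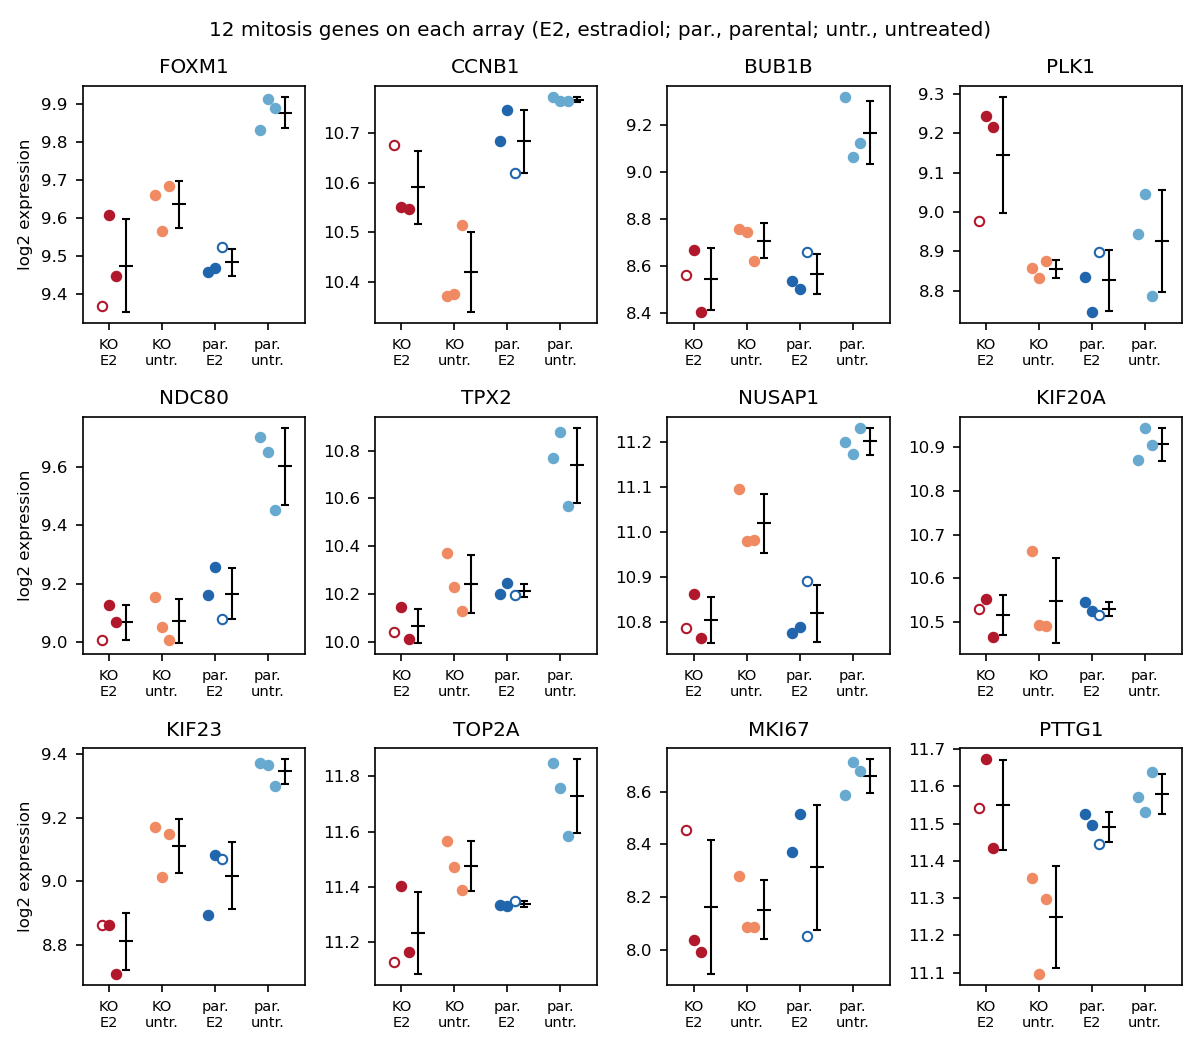
Log2 level of 12 mitosis genes on each array, by group (E2, estradiol), with the group mean and SD. Hollow circles are the arrays MTDH KO estradiol 1 and parental estradiol 3, whose MTDH level went against their labels. PLK1 has its highest mean in MTDH KO estradiol cells, and the other genes shown have theirs in parental untreated cells.

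Without the 2 arrays the differences between the untreated lines are the same by construction, and 27 of the 37 genes were called lower, where 13.6% of all genes fell. After quantile normalization 6 of the 37 fell (BUB1B, NDC80, CENPA, AURKB, TPX2 and ANLN), against 3.55% of all genes, with a median of −0.15. That normalization also turned the balance over all genes, with 883 higher and 699 lower in place of 454 higher and 1698 lower. The count was 12 without parental untreated 1, 7 without parental untreated 2, 6 without MTDH KO untreated 2 and 9 without MTDH KO untreated 3. For fits with 1 array left out, here and below, the share of all genes called is not given. The median stayed between −0.31 and −0.26 with any 1 array left out.

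In the presence of estradiol the lines differed in 0 of the 37 genes by limma, and in 0% of all genes. At an unadjusted p under 0.05, 5 of the 37 passed: PLK1 was higher and BUB1, ASPM, KIF23 and ANLN lower in MTDH KO estradiol cells. Over all 19670 genes 233 were higher and 831 lower at that p. Without the 2 arrays PLK1 (0.44 ± 0.09, adjusted p = 0.00276) and BIRC5 (0.28, adjusted p = 0.048) rose in MTDH KO estradiol cells and MKI67 fell (−0.43, adjusted p = 0.00407), where 4.96% of all genes rose and 4.83% fell. That fit left 2 arrays in each estradiol group.

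The next comparison asked how estradiol acted in the parental line. With estradiol, 18 of the 37 mitosis genes fell and 0 rose, where 5.87% of all genes fell. The median was −0.25, against −0.05 over all genes and −0.11 among genes of the same levels. Those that fell were 3 of 8 cyclins and entry kinases, 1 of 7 checkpoint genes, 5 of 7 kinetochore genes, 4 of 8 spindle genes, 4 of 5 cytokinesis genes and 1 of 2 chromosome proteins. CCNB1 differed by −0.08, AURKA by −0.09, and CDC20, an activator of the anaphase-promoting complex, by 0.01.

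BUB1B read 8.53, 8.50 and 8.66 in parental estradiol cells, and all 3 values lay under the parental untreated values given above (−0.60 ± 0.09, adjusted p = 0.00106). NDC80 read 9.16, 9.26 and 9.08 in parental estradiol cells, again below every parental untreated array (−0.44 ± 0.08, adjusted p = 0.00425). CENPE followed among the kinetochore genes (−0.25, adjusted p = 0.0237). TPX2 read 10.20, 10.25 and 10.20 with estradiol (−0.52 ± 0.08, adjusted p = 0.00227), and KIF20A 10.55, 10.53 and 10.52 (−0.38 ± 0.06, adjusted p = 0.00258). In both genes the estradiol and untreated arrays of the parental line were apart. CDC25C, the phosphatase that switches on CDK1, fell by 0.24 (adjusted p = 0.0244). TTK (−0.20) and MKI67 (−0.35, adjusted p = 0.128) did not pass.

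Of the 19 genes lower in MTDH KO untreated cells and the 18 lower in parental estradiol cells, 13 are the same. Both comparisons use the 3 parental untreated arrays, so this overlap is no independent result. CCNB1, CDC2, AURKA, PTTG1, DLGAP5 and MKI67 passed in the first and not the second, and CCNB2, CDC25C, NUSAP1, KIF23 and TOP2A in the second and not the first. PTTG1 had −0.33 between the untreated lines and −0.09 for estradiol in parental cells, and NUSAP1 had −0.18 between the lines and −0.38 for estradiol. The difference between these 2 contrasts was not tested.

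With those 2 arrays left out, 20 of the 37 fell with estradiol in parental cells (9.14% of all genes), 17 of them among the 18. After quantile normalization 7 fell (FOXM1, BUB1B, NDC80, TPX2, NUSAP1, KIF20A and TOP2A), against 2.39% of all genes. The count was 8 without parental untreated 1, 6 without parental untreated 2, 9 without parental estradiol 1 and 7 without parental estradiol 2.

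**Figure D4:**
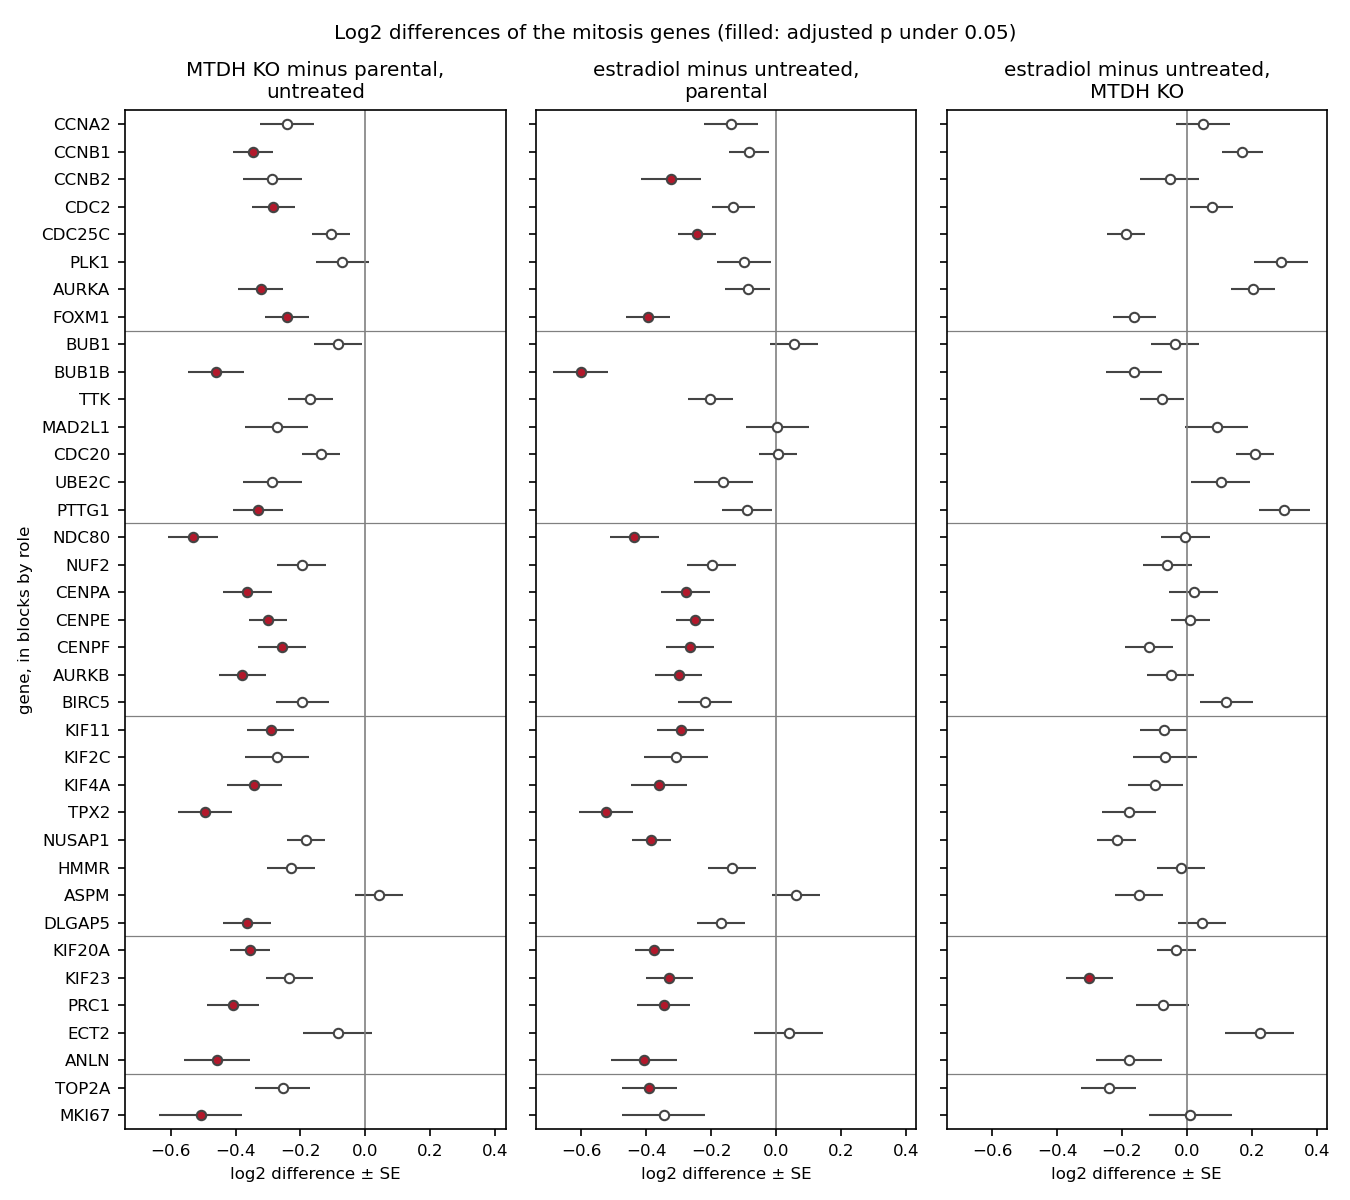
Log2 difference ± SE of each mitosis gene for MTDH KO minus parental in untreated cells (left), estradiol minus untreated in parental cells (middle) and estradiol minus untreated in MTDH KO cells (right). Filled points passed at an adjusted p under 0.05: 19 on the left, 18 in the middle and 1, KIF23, on the right. The left and middle panels share the parental untreated arrays, and the left and right panels the MTDH KO untreated arrays.

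In MTDH KO cells 1 of the 37 genes fell with estradiol by limma and 0 rose, where 2.69% of all genes fell and 1.18% rose. It was KIF23, the motor of the centralspindlin complex needed for the last cut between daughter cells (−0.30 ± 0.07, adjusted p = 0.0339). Another 9 members passed at an unadjusted p under 0.05, 5 of them higher (PTTG1, CDC20, PLK1, AURKA and CCNB1) and 4 lower (NUSAP1, CDC25C, TOP2A and FOXM1) with estradiol. Over all 19670 genes 953 were higher and 2273 lower at that p. The median was −0.04. PTTG1 just missed the threshold (0.30, adjusted p = 0.0504), as did NUSAP1 (−0.22, adjusted p = 0.0637). CENPF had the smallest p of the kinetochore genes (−0.12, adjusted p = 0.505).

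The KIF23 call was lost without parental untreated 2, MTDH KO untreated 1 or MTDH KO untreated 3, each of which left 0 of 37 called. It was also lost with the replicate number as a block (KIF23 adjusted p = 0.0521), with a trended and robust prior (0.0596) and in a limma fit of only the 6 arrays compared (0.0638). The count was 2 without MTDH KO estradiol 1 or without parental estradiol 3, and 3 without MTDH KO estradiol 2. With both doubted arrays left out, PLK1 (0.37, adjusted p = 0.00736), PTTG1 (0.30, adjusted p = 0.0484) and ECT2 (0.30, adjusted p = 0.0444) rose and KIF23 fell (−0.33, adjusted p = 0.0218). In that fit 2.54% of all genes rose and 4.26% fell. After quantile normalization 5 passed, PLK1 and AURKA higher and NUSAP1, KIF23 and TOP2A lower with estradiol, where 2.40% of all genes rose and 3.05% fell.

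Averaged over both lines, estradiol lowered 15 of the 37 genes and raised 0, where 8.76% of all genes fell. NUSAP1, a microtubule-bundling spindle protein, had the smallest p. It read 10.79, 10.86 and 10.76 in MTDH KO estradiol cells against 11.10, 10.98 and 10.98 in MTDH KO untreated cells, and 10.78, 10.79 and 10.89 in parental estradiol cells against 11.20, 11.17 and 11.23 in parental untreated cells. In either line the estradiol arrays lay below the untreated ones (−0.30 ± 0.04, adjusted p = 0.000494). KIF23 read 8.86, 8.86 and 8.71 in MTDH KO estradiol cells against 9.17, 9.01 and 9.15 in MTDH KO untreated cells, and 8.90, 9.08 and 9.07 in parental estradiol cells against 9.37, 9.36 and 9.30 in parental untreated cells. It too separated by treatment in each line (−0.31 ± 0.05, adjusted p = 0.00139).

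CDC25C and CENPF were separated by treatment in each line as well. In the other 11 of the 15 genes the knockout groups overlapped, while the parental groups did not. These 15 were picked by a test on the same arrays, so their separation is no further support. The share of all genes that separate is not given, and no difference between the lines is read from these counts. FOXM1 read 9.37, 9.61 and 9.45 in MTDH KO estradiol cells against 9.66, 9.57 and 9.68 in MTDH KO untreated cells, and 9.46, 9.47 and 9.52 in parental estradiol cells against 9.83, 9.91 and 9.89 in parental untreated cells. The averaged response was −0.28 ± 0.05 (adjusted p = 0.00214), with overlap in the knockout line and none in the parental line. TOP2A read 11.13, 11.40 and 11.17 in MTDH KO estradiol cells against 11.57, 11.47 and 11.39 in MTDH KO untreated cells, and 11.33, 11.33 and 11.35 in parental estradiol cells against 11.85, 11.76 and 11.59 in parental untreated cells. It fell as well (−0.32 ± 0.06, adjusted p = 0.00419), and its highest MTDH KO estradiol value lay just above its lowest MTDH KO untreated value.

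BUB1B had 8.56, 8.67 and 8.40 in MTDH KO estradiol cells, against 8.76, 8.74 and 8.62 in MTDH KO untreated cells (averaged response −0.38 ± 0.06, adjusted p = 0.00117). NDC80 had 9.01, 9.13 and 9.07 in MTDH KO estradiol cells, against 9.15, 9.05 and 9.01 in MTDH KO untreated cells (−0.22 ± 0.05, adjusted p = 0.0186). In both genes the knockout groups overlapped. TPX2 (−0.35), CDC25C (−0.22), KIF20A (−0.20), CENPF (−0.19), ANLN, KIF4A, PRC1, KIF11 and AURKB complete the 15.

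In the average, 16 fell without the 2 arrays (11.8% of all genes), 14 of them among the 15. After quantile normalization 9 fell (5.19% of all genes) and 2 rose, PLK1 (0.18, adjusted p = 0.0287) and CDC20 (0.14, adjusted p = 0.0244), where 4.30% of all genes rose. The count was 9 without parental untreated 1, and 8 without parental untreated 2 or without MTDH KO untreated 1.

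Whether estradiol acted differently in the lines was tested as the interaction, the response of MTDH KO cells minus that of parental cells. It was called in 0 of the 37 genes by limma, and in 0.00508% of all genes. At an unadjusted p under 0.05, 18 of the 37 were above 0 and 0 below, against 1462 above and 607 below of the 19670. The median was 0.23, against 0.02 over all genes, and 35 of 37 values were above 0. KIF20A (0.34 ± 0.09) and NDC80 (0.43 ± 0.11) had the smallest adjusted p, 0.167 each, and BUB1B (0.44) had 0.201. The responses of the 2 lines, with medians of −0.04 in MTDH KO cells and −0.25 in parental cells, were therefore not shown to differ for any member on all arrays.

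PLK1, the Polo-like kinase that acts from mitotic entry to cytokinesis, differed from most of the list. It read 8.98, 9.24 and 9.22 in MTDH KO estradiol cells, 8.86, 8.83 and 8.88 in MTDH KO untreated cells, 8.84, 8.75 and 8.90 in parental estradiol cells, and 8.94, 9.05 and 8.79 in parental untreated cells. The highest values were those of MTDH KO estradiol 2 and 3. MTDH KO estradiol 1, the array with an MTDH level near the parental one, lay below parental untreated 2 and above every other array outside its group. Parental estradiol 3, with an MTDH level near that of the knockout, read 8.90 and lay below all 3 MTDH KO estradiol arrays. On all arrays the estradiol response of PLK1 in MTDH KO cells was 0.29 ± 0.08 (adjusted p = 0.0729) and its interaction 0.39 ± 0.12 (adjusted p = 0.239). Its interaction without the 2 arrays was 0.51 ± 0.11 (adjusted p = 0.0427), called for PLK1 alone among the 37, where 0.483% of all genes were called higher. BIRC5 (0.47, adjusted p = 0.0589) missed the threshold in that fit.

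How alike the members moved can be described by their correlation over the 12 arrays, which share groups and the overall level of each array. The mean Pearson r of a gene with the other members was highest for CENPE (0.70), KIF11 (0.69) and KIF20A (0.68). It was lowest for PLK1 (−0.06), ECT2 (0.00), ASPM (0.06), CDC20 (0.14) and BUB1 (0.29). After quantile normalization the means ran from −0.31 (CDC20) to 0.42 (KIF20A). PLK1, CDC20 and ECT2, whose highest group mean was in MTDH KO estradiol cells, were among the 5 genes with the lowest means.

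Of 61 other mitotic genes tested (of 66 listed), 22 fell and 0 rose in MTDH KO untreated cells, where 8.63% of all genes fell, with a median of −0.18. CDC25B, a phosphatase of mitotic entry, differed by −0.49 (adjusted p = 0.00467), SPC24, a partner of NDC80, by −0.78 (adjusted p = 0.00496), and the condensin subunits NCAPG2 by −0.44 and SMC2 by −0.36. With estradiol in parental cells 17 fell and 0 rose (5.87% of all genes fell), led by CDC25B (−0.59), the motor KIF15 (−0.31), RACGAP1 (−0.39), the partner of KIF23, and SPC24 (−0.58). In MTDH KO cells estradiol lowered 1 of the 61, against 2.69% of all genes. It was WEE1 (−0.29, adjusted p = 0.0206), the kinase that holds CDK1 back. With those 2 arrays left out the counts lower in these comparisons were 25, 15 and 1, where 13.6%, 9.14% and 4.26% of all genes fell. After quantile normalization they were 13, 4 and 2, where 3.55%, 2.39% and 3.05% of all genes fell. In the average over lines 16 fell (8.76% of all genes), HJURP (−0.23), the chaperone of CENPA, among the 4 with the smallest p.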

How the data were processed

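Total RNA from ECC1 cells was hybridized to Illumina arrays, per the labels' protocols. The authors deposited log2 values, 1 for each gene symbol on each array, with 0 missing and array medians from 6.78 to 6.86. Background correction, normalization between arrays and the merging of probes are not given in the sources used here. The number of arrays limits the precision.

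A gene was tested where 3 or more arrays exceeded 6.817, the median over the whole table, as 19670 did. Group means were fitted with limma 3.58.1 in R 4.3.3 (lmFit and eBayes, 8 residual degrees of freedom), two-sided, with Benjamini-Hochberg adjustment over all genes in each of 6 comparisons. The 37 members and the other lists were chosen with earlier results of these data known. In each comparison the 2 members of each role with the smallest p could be named (1 where none passed). Values per array were given for the member with the smallest p of each role between the untreated lines and in the averaged estradiol response, and the values of PLK1, MTDH and a few further members were chosen after they were seen. Of each other list, the 4 called genes with the smallest p were named. Lists are described by counts and medians. Alternatives were other filters, quantile normalization, median centring, array weights, another prior, a block for the replicate number, fewer arrays and a threshold of 0.01. Leaving out 2 arrays was chosen after seeing the data. Residuals of arrays with the same replicate number correlated above 0.1 in 6 of 18 pairs (−0.499 to 0.647). The values 0.623, −0.499 and 0.647 all came from MTDH KO estradiol against parental estradiol. Those groups hold MTDH KO estradiol 1 and parental estradiol 3. Between the other groups r ran only from −0.0614 to 0.195. Pairing by number is not settled, and the part of those 2 arrays in the wide range was not tested. The fit was tested on simulated data with 200 changed genes. The simulated noise took its spread from the arrays without MTDH KO estradiol 1 and parental estradiol 3. The simulation therefore does not show how the fit behaves with those arrays included.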

Additional observations from a re-analysis of the deposited data

Results flagged for a closer look

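PLK1 stood out because its estradiol response differed between the lines in a test of the difference itself, with 2 arrays left out. That omission was chosen after seeing the data, and 0.483% of all genes were called higher in that fit. When the arrays MTDH KO estradiol 1 and parental estradiol 3 were left out, its interaction was 0.51 ± 0.11 (SE, limma adjusted p = 0.0427). In that fit estradiol gave 0.37 in MTDH KO cells and −0.14 in parental cells, with 2 arrays in each estradiol group. On all arrays the interaction was 0.39 (adjusted p = 0.239).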

How the results depend on the processing

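Of 73 differences of single members followed through the alternatives, 0 changed sign, but calls were often lost. After quantile normalization 30 of the 73 were no longer called, 42 kept their side of the threshold and 1 was gained. The 73 were not all members in all comparisons, and further calls were gained outside them. For estradiol in MTDH KO cells 5 members passed after quantile normalization, 1 of them also called before it. Between the untreated lines the count of 19 became 6 after quantile normalization, 30 with array weights and 6 at a threshold of 0.01, and ran from 6 to 24 with 1 array left out. Between the lines with estradiol, 0 became 3 without the 2 arrays and 6 with quantile normalization too, and was 0 with any 1 array left out. For estradiol in parental cells 18 became 7 after quantile normalization, 6 at 0.01, and 8 without the 2 arrays after quantile normalization, and ran from 6 to 20 over single omissions. For estradiol in MTDH KO cells 1 became 2 with a filter at the 67th percentile, 5 after quantile normalization, 4 with median centring, 3 with array weights, 4 without the 2 arrays and 7 with quantile normalization too. It became 0 with a trended and robust prior, with the replicate number as a block, at 0.01 and in a fit of the 6 arrays compared, and ran from 0 to 3 over single omissions. Its median of −0.0358 turned to 0.00805 without MTDH KO untreated 1 and was −0.0509 at the lowest. The averaged response gave 8 at 0.01 in place of 15, and 8 to 17 over single omissions. The interaction gave 1 without the 2 arrays, 2 with quantile normalization too, and 0 over single omissions. With the replicate number as a block, whose pairing is not settled, the counts were 21 between the untreated lines, 0 between the lines with estradiol, 18 for estradiol in parental cells, 15 in the average and 0 for the interaction. The share of all genes called is given above only for all arrays, without the 2 arrays and after quantile normalization. For the other settings a change of the members cannot be told from a change over all genes. The causes were not tested.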

Other observations

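DNA replication genes act in S phase. Of 42 tested, 10 fell and 0 rose in MTDH KO untreated cells relative to parental untreated cells, with a median of −0.20. Over all genes tested 8.63% fell, and 16.9% of those in the mitosis genes' range of mean level. RRM2, a subunit of ribonucleotide reductase, differed by −0.69 ± 0.13 (SE, limma adjusted p = 0.00841), DTL by −0.41, the helicase subunit MCM6 by −0.28 and the thymidine kinase TK1 by −0.41. With estradiol in parental cells 5 of the 42 fell, where 5.87% of all genes did, among them TK1 (−0.59, adjusted p = 0.00227), RRM2 (−0.58), the DNA ligase LIG1 (−0.24) and MCM5 (−0.39). After quantile normalization 2 of the 42 fell in each of these comparisons, close to the 3.55% and 2.39% of all genes that did, and 2 rose with estradiol in parental cells, where 2.11% of all genes rose.

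UHRF1, which helps to carry DNA methylation through replication, went the other way with estradiol. It rose by 0.50 ± 0.12 in MTDH KO cells (SE, limma adjusted p = 0.0311) and by 0.43 ± 0.08 in the average over both lines (adjusted p = 0.00475). In MTDH KO cells it was the only 1 of the 42 to rise, where 1.18% of all genes rose, which does not set the list apart. Without the 2 arrays UHRF1 rose by 0.46 in parental cells (adjusted p = 0.00316) and by 0.37 in MTDH KO cells (adjusted p = 0.0171). The averaged rise in that fit was 0.41 (adjusted p = 0.000222).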
